A study of Fragaria x ananassa with 6 samples.

Results

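The dioxygenase genes gene30779, gene30780, FaDioxi1 and FaDioxy2 were followed in ripe strawberry (Fragaria x ananassa) receptacles, the fleshy organ that carries the achenes. They are 4 of the 35116 gene names on a custom oligonucleotide array, found by those names, and were picked because their signal was lower in fruits agroinfiltrated with the FaPRE1 RNAi construct. The study described gene30779 and gene30780 as codeine O-demethylase-like from their closest apple protein, whereas FaDioxi1 and FaDioxy2 are known here only by the names the array gives them. The arrays held no ripening stages, so nothing below measures how these genes change as the fruit ripens. All values compare RNAi with control fruits, and since that same contrast chose the genes, their values are given as a description without a test.

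Proteins of the 2-oxoglutarate-dependent dioxygenase superfamily use iron, oxygen and 2-oxoglutarate to hydroxylate, demethylate or otherwise oxidise a second substrate. In plants this superfamily includes flavanone 3-hydroxylase and anthocyanidin synthase, which act on the route to the red pigments of ripe strawberry, and the oxidases that make and inactivate gibberellins. Codeine O-demethylase itself was characterised in opium poppy, where it removes a methyl group from an alkaloid to give morphine. The substrates of the strawberry proteins were not part of these data.

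Whole fruits on the plant were injected with Agrobacterium tumefaciens, strain AGL0 in the labels and AGL1 in the methods, carrying either the empty pFRN vector (control, n = 3) or pFRN-FaPRE1 (RNAi, n = 3). FaPRE1 encodes an atypical HLH protein, a regulator without the basic region that binds DNA. Each sample was a pool of fruits taken at the red stage with the achenes removed, and transfection was transient. How many cells of a sample the construct reached is not known. The methods name the cultivar Elsanta for the infiltrated plants, whereas no cultivar or fruit age stands in the labels. In the labels, 1 field calls the RNAi fruits overexpressing, and the extraction text names floral buds. The titles and sources, which name fruit and the RNAi construct, were followed.

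One control and 1 RNAi sample with the same replicate number shared each of 3 arrays. RNAi cDNA carried Cy3 on arrays 1 and 3 and Cy5 on array 2. Spots were called well above background for 60.7% to 72.7% of gene spots in control and 44.1% to 60.4% in RNAi samples. Among the 21098 genes that passed the filter on dim probes, 3785 (17.9%) were lower and 3565 (16.9%) higher in RNAi receptacles at an adjusted p under 0.05 (limma, Benjamini-Hochberg). That filter kept probes above background in either group. Where both groups were required, limma called 2987 genes lower and 3409 higher. The FaPRE1 probe stood at -0.52 (log2, SE 0.11, n = 3, limma adjusted p = 0.015) and the gene model assigned to FaPRE1, gene30478, at -0.33 (limma adjusted p = 0.18). The related genes FaPRE2 (gene28320) and FaPRE3 (gene03986) stood at -1.15 (limma adjusted p = 0.0016) and 0.74 (limma adjusted p = 0.0063). Normalization by loess set the genes at each intensity on an array near a log2 ratio of 0 (median -0.04 over all genes). Each ratio is thus relative to the bulk of the genes of similar intensity. These were bulk RNA samples, in which fewer cells of a type and less RNA per cell cannot be told apart. With 3 arrays, precision is set mainly by how few arrays there are.

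The 2 codeine O-demethylase-like genes showed the deepest differences of the 4. In gene30779 the spot signal after subtracting local background was 59324 in control and 624 in RNAi fruits on array 1. On array 2, with the dyes swapped, the same spot gave 31794 and 1768. On array 3 it gave 124433 and 345.5. The control signal was 95.1, 18.0 and 360 times the RNAi signal on arrays 1, 2 and 3 before any normalization. After loess and scaling between arrays, the normalized log2 signals of gene30779 were 14.62, 14.79 and 15.08 in control replicates 1, 2 and 3 and 10.72, 11.02 and 10.42 in the RNAi replicates. No RNAi sample came within 3.60 log2 units of the lowest control sample. The group means were 14.83 ± 0.23 (SD, n = 3) and 10.72 ± 0.30 (SD, n = 3). The normalized log2 ratio on each array was -3.90, -3.77 and -4.66, a mean of -4.11 ± 0.48 (SD, n = 3) or 17.25-fold, which placed gene30779 as number 6 from the lowest among the genes tested.

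The neighbour by identifier, gene30780, followed it closely. Its background-subtracted signal was 24394 in control against 246 in RNAi fruits on array 1, 14870 against 560 on array 2 and 48311 against 187 on array 3. These correspond to 99.2, 26.6 and 258 times more signal in control before normalization. Normalized log2 signals were 13.34, 13.67 and 13.69 in the control samples and 9.51, 9.53 and 9.67 in the RNAi samples. The groups were 3.68 log2 units apart at their nearest samples, and the RNAi samples differed little among themselves (mean 9.57 ± 0.09, SD, n = 3, against 13.57 ± 0.20 in control). The array ratios of -3.83, -4.14 and -4.03 averaged -4.00 ± 0.15 (SD, n = 3) or 16.0-fold, number 7 from the lowest. Within arrays, the ratio of gene30779 minus that of gene30780 was -0.07, 0.37 and -0.63, and its mean of -0.11 was smaller than its SD of 0.50. Each of these genes had 1 probe with 1 spot per array, so the error of a single spot cannot be separated from the difference between replicates.

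FaDioxi1 and FaDioxy2, each read by 2 spots of 1 probe, showed smaller differences. On array 1 the 2 spots of FaDioxi1 gave 46113 and 51802 in control and 1971 and 2309.5 in RNAi fruits. They gave 14200 and 16033 against 4281 and 4746 on array 2, and 65737.5 and 72296 against 1534 and 1845 on array 3. The 2 spots differed in log2 ratio by 0.04 to 0.12. Normalized log2 signals of FaDioxi1 were 14.28, 13.72 and 14.28 in control and 12.37, 12.33 and 12.60 in RNAi samples, and the groups lay 1.12 apart at their nearest. The ratios of -1.91, -1.39 and -1.68 averaged -1.66 ± 0.26 (SD, n = 3), a 3.16-fold lower signal and the smallest difference among the 4 genes.

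In FaDioxy2, the 2 spots gave 28861.5 and 30012 in control against 899.5 and 1022 in RNAi fruits on array 1. On array 2 they gave 8849 and 9983 against 1943.5 and 2059, and on array 3 they gave 43027 and 43046.5 against 588 and 606.5. Here too the 2 spots were close, within 0.04 to 0.12 in log2 ratio. Normalized log2 signals were 13.60, 13.03 and 13.54 in control and 11.29, 11.23 and 11.12 in RNAi samples, leaving a gap of 1.74 between the groups. Control replicate 2 was the lowest control sample for FaDioxi1 and for FaDioxy2, whereas the RNAi samples of FaDioxy2 lay within a narrow band (11.21 ± 0.09, SD, n = 3). FaDioxy2 had ratios of -2.31, -1.79 and -2.42, with a mean of -2.17 ± 0.34 (SD, n = 3), or 4.52-fold.

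**Figure D1:**
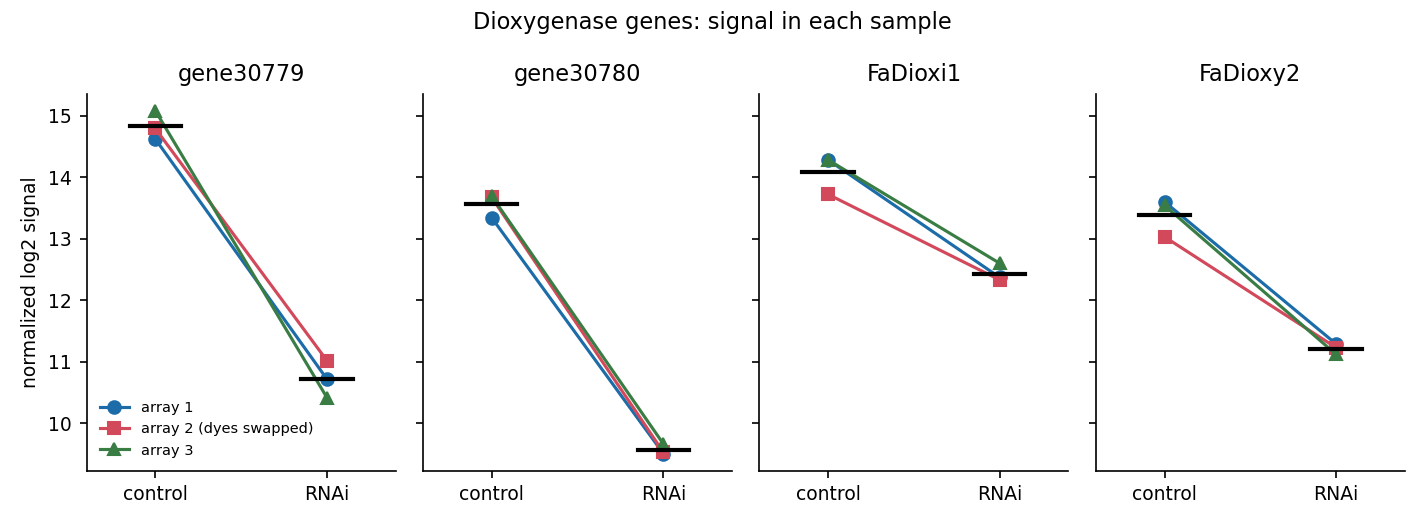
Normalized log2 signal of each dioxygenase gene in the 3 control and 3 RNAi samples. Lines join the 2 samples of an array, symbols and colours mark arrays 1 to 3, and black bars are group means. For gene30779 and gene30780 the nearest control and RNAi samples are 3.60 and 3.68 log2 units apart, for FaDioxi1 and FaDioxy2 1.12 and 1.74.

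The 4 genes thus split into pairs. On each of the 3 arrays gene30779 and gene30780 had lower ratios than FaDioxi1 and FaDioxy2, with mean differences from -2.45 to -1.83 log2 units across the 4 combinations. The depth was not shared by all genes of their description. The codeine O-demethylase-like gene30782, outside the 4, had a mean ratio of -1.59, less negative than that of each of the 4. FaDioxi1 lay above FaDioxy2 on every array, by 0.40, 0.40 and 0.74 (mean 0.51, SD 0.19). The order of the pairs was also present in the unnormalized signals of every array. The control samples of 4 of the 4 genes lay above all their RNAi samples, as did those of 26% of the genes tested. As the genes were picked on this contrast, nothing was read from that count. In the distribution of all tested genes, 1.2% had a mean ratio as low as that of FaDioxi1, the least reduced of the 4, and 4.81% had one under -1.

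**Figure D2:**
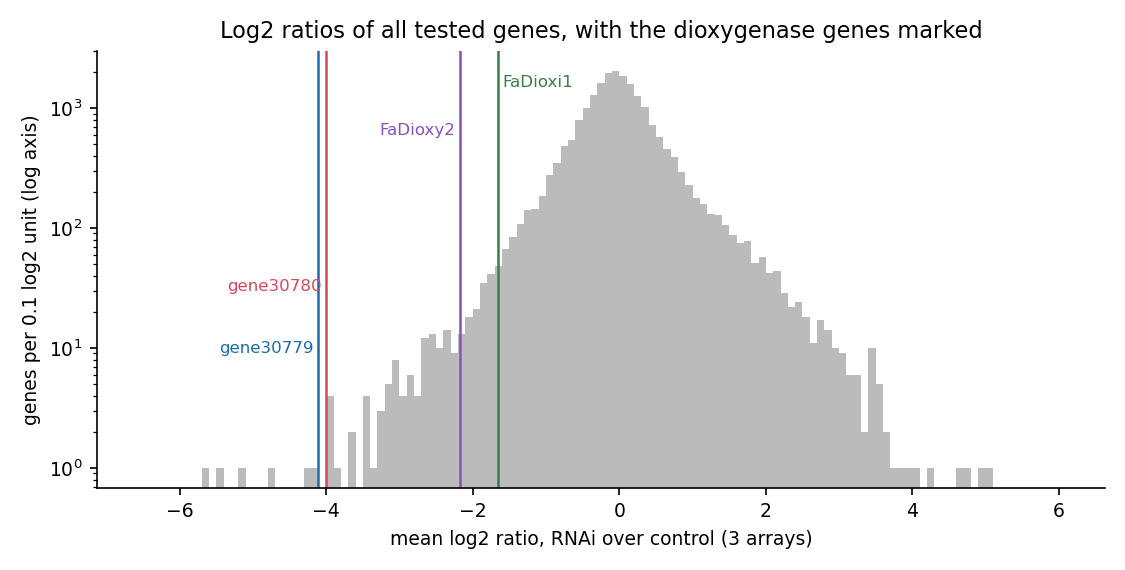
Distribution of the mean log2 ratio, RNAi over control, of the 21098 genes tested, with the number of genes per bin on a log axis and vertical lines at the dioxygenase genes. The lines of gene30779 (-4.11) and gene30780 (-4.00) stand in the far lower tail, those of FaDioxy2 (-2.17) and FaDioxi1 (-1.66) on its slope.

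The dye-swapped array gave less negative ratios than the mean of the other two for gene30779 (by 0.51), FaDioxi1 (by 0.41) and FaDioxy2 (by 0.58), and a more negative one for gene30780, by 0.21. Weighting the dye orientations equally gave -4.02, -4.03, -1.59 and -2.08 for gene30779, gene30780, FaDioxi1 and FaDioxy2. Only 1 array carried the swapped orientation, so dye and replicate 2 cannot be told apart. The ratios before normalization differed between arrays more than the normalized ratios did, and the share of each processing step in that was not tested.

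Spike-in probes, which read Agilent control transcripts foreign to strawberry, offered a scale that does not assume an unchanged bulk. Compared within each dye, gene30779 was lower in RNAi samples by a difference of -6.66 (Cy3) and -5.79 (Cy5), and gene30780 by -6.68 and -6.12, in log2 units against the spike-ins. Each such difference set RNAi and control samples of different arrays against each other, without the pairing by array. For FaDioxi1 the differences were -3.55 and -3.87, and for FaDioxy2 -4.20 and -4.34. The median of the kept spots itself stood at -2.10 and -2.09 on that scale, and the sign of the 4 genes was the same on it as after loess. No test was made on the spike-in scale.

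**Figure D3:**
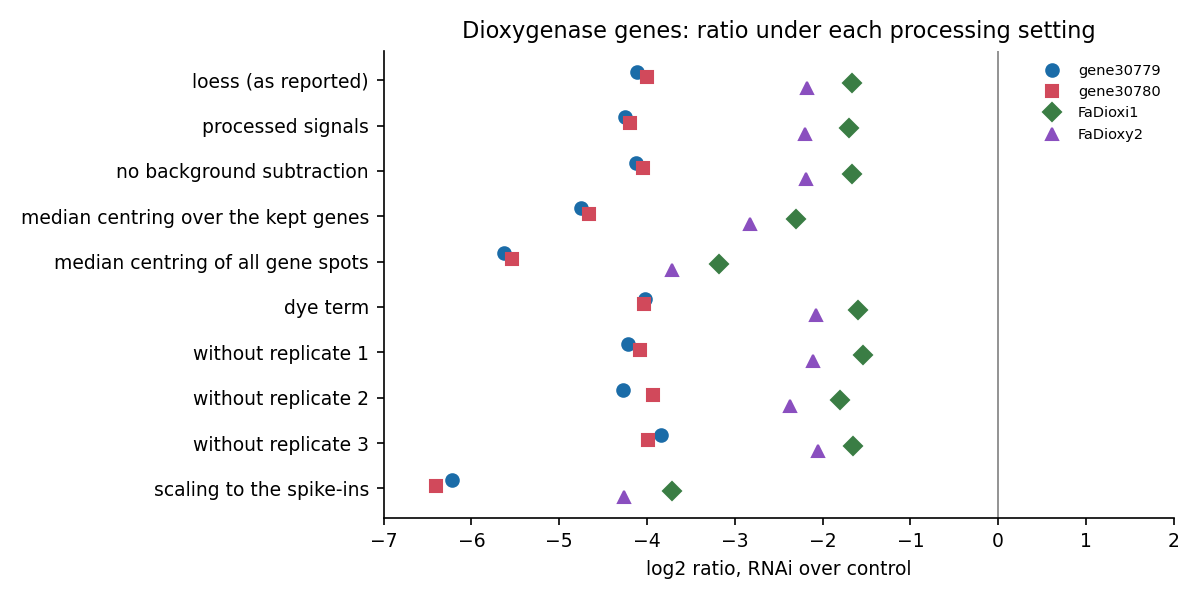
Log2 ratio, RNAi over control, of each dioxygenase gene under the reported processing and 9 other settings, with 1 symbol per gene. All values are below 0, and the separation of gene30779 and gene30780 from FaDioxi1 and FaDioxy2 is present in each setting, whereas median centring and the spike-ins shift the 4 genes together.

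Markers of other tissue also differed between the groups. The 6 achene genes (legumins, an oleosin and a vicilin, storage proteins and oil body proteins of the seed), which the study had itself selected as higher in RNAi fruits, had ratios of 3.30 to 4.63, and 6 of 6 were above background in every sample. Their summed level, in log2, was 13.27 to 13.75 in control and 17.11 to 17.27 in RNAi samples. The 7 ripe receptacle genes, among them FaMYB10, the activator of anthocyanin synthesis, and the polygalacturonase FaPG1, had a median ratio of -3.43. The study had named them as lower in these same RNAi fruits, so their direction, like that of the achene genes, was fixed by that choice and is not independent evidence. One of them, gene14611, is also among the dioxygenases described next. Their summed log2 level was 18.03 to 18.17 in control and 15.09 to 16.01 in RNAi samples. The part of achene RNA or of receptacle maturity in the dioxygenase values was not tested.

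Other dioxygenases listed by the study from these same samples were set beside the 4 genes. That choice is not independent evidence of direction, and their values are described only. The list held 6 genes, with a median ratio of -1.85 (-0.04 over all genes tested). Of all genes tested 17.9% were called lower, and no count of calls is given for the list, as the study's choice fixed its direction. The list had 3 genes described as AOP2, a probable inactive 2-oxoglutarate-dependent dioxygenase whose relatives in Arabidopsis modify glucosinolates. The ratios of gene14841 were -2.61, -2.30 and -2.94, those of gene18930 -2.23, -1.67 and -2.32, and those of gene02231 -1.94, -1.09 and -1.92. The flavanone 3-hydroxylase gene14611 had -2.13, -1.38 and -2.64. A gibberellin 2-beta-dioxygenase 1-like gene, of the class that inactivates gibberellins, gene31337, had -1.78, -1.70 and -1.41. The sixth, gene30782, was another codeine O-demethylase-like gene, at -1.69, -1.88 and -1.19, and was well above background in 2 of the 3 RNAi samples. Each of the 6 had a mean less negative than gene30779 and gene30780.

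Among the genes that the array names for flavonoid dioxygenases, which were looked up after the values had been seen, FaFHT (flavanone 3-hydroxylase by its usual abbreviation) had ratios of -2.48, -1.41 and -2.77. FaANS, named for anthocyanidin synthase, had -1.45, -1.04 and -1.61. FaFLS, named for flavonol synthase, was not well above background in any of the 6 samples and was not tested. Array 2 gave the least negative ratio for FaFHT and FaANS. It did so too for gene30779, FaDioxi1, FaDioxy2, gene14611, gene14841, gene18930 and gene02231, but not for gene30780, gene30782 and gene31337.

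A further 12 dioxygenases were taken by description from the start of an identifier-ordered gene table, which was at hand only in part, without regard to their values. The filter removed 6 of them. Of the 6 tested, 1 rose, none was called lower and 5 were not called in limma, with a median ratio of 0.09. At an adjusted p under 0.05, 34.8% of all genes tested were called in either direction. The gene that rose was gene00852, described as gibberellin 2-beta-dioxygenase 8-like, by 1.15 (SE 0.16, n = 3, limma adjusted p = 0.0048). Its normalized log2 signals were 7.17, 6.80 and 6.52 in control and 7.93, 8.23 and 7.80 in RNAi samples, with no overlap. Against the spike-ins gene00852 stood at 0.20, without a test. Its ratio was 0.60 (limma adjusted p = 0.27) with median centring of all gene spots and 2.14 (limma adjusted p = 0.0064) with the processed signals.

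The other tested genes of that table covered several branches of the superfamily. An AOP1 gene, gene01062, gave ratios of 0.65, -1.31 and -2.09 (mean -0.91, limma adjusted p = 0.20). Its control sample on array 1 was low, with normalized log2 signals of 9.40, 11.35 and 11.93 in control and 10.05, 10.04 and 9.84 in RNAi samples, and without replicate 1 its ratio was -1.70 with a limma adjusted p of 0.00059. An ACC oxidase, gene01202, of the enzyme that makes ethylene, had the opposite pattern, with 14.66, 12.16 and 12.06 in control and 11.81, 12.06 and 11.98 in RNAi samples. Its ratios were -2.85, -0.11 and -0.07 (mean -1.01, limma adjusted p = 0.21), and without replicate 1 the mean was -0.09. The DMR6-like gene00958 (0.17), whose Arabidopsis relatives oxidise salicylic acid, and the prolyl 4-hydroxylases gene01311 (0.17) and gene01545 (0.02), of the class that hydroxylates proline in cell wall glycoproteins, had mean ratios near 0, with limma adjusted p of 0.28, 0.47 and 0.91. The 4 gibberellin 3-beta-dioxygenase 1-like genes, gene01056, gene01058, gene01059 and gene01060, of the class that makes active gibberellins, were not well above background in any sample. The AOP1 genes gene01063 and gene01064 were above it in 2 control samples each and in 0 and 1 RNAi samples.

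**Figure D4:**
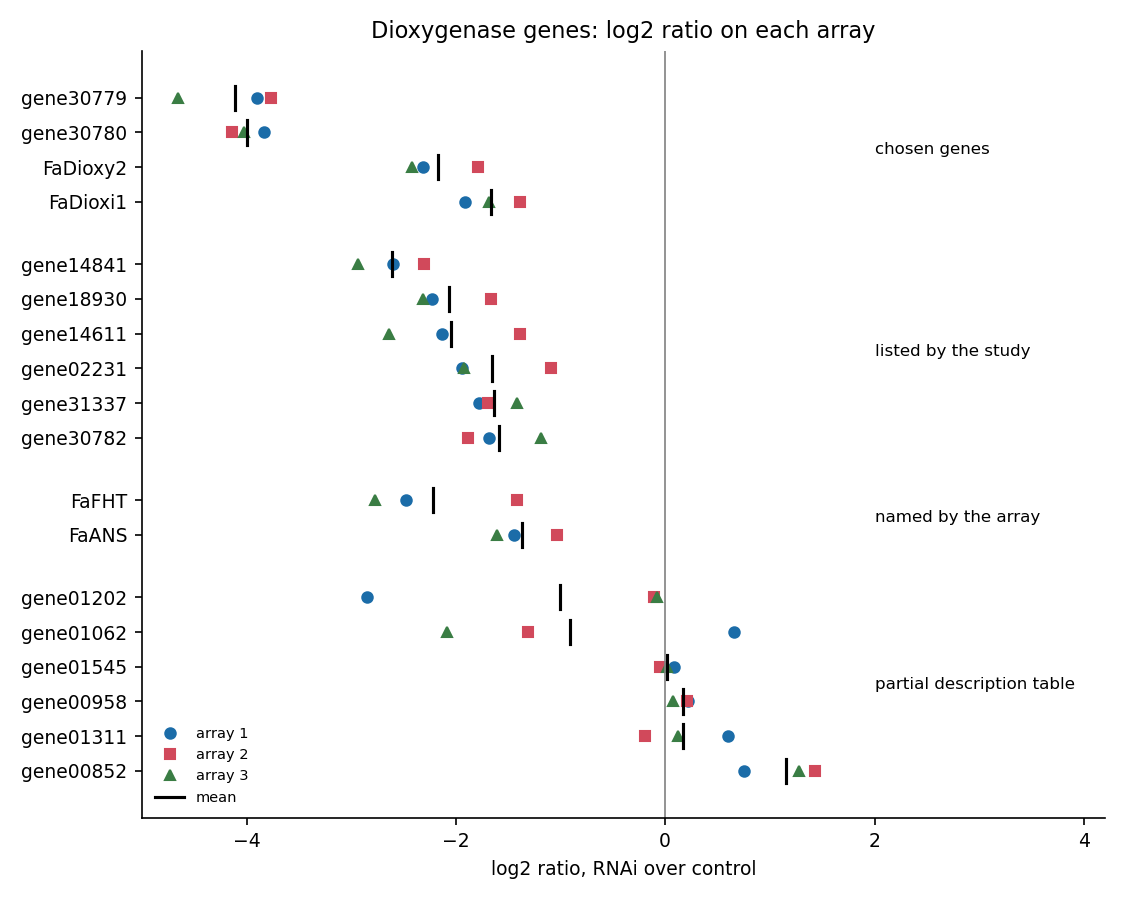
Log2 ratio, RNAi over control, on each of the 3 arrays (symbols) and the mean (black bars) for the 4 dioxygenase genes and the other dioxygenases tested, grouped by how they were chosen. Genes chosen by the study or picked for their values lie to the left of 0, and those of the partial description table, taken by description, have means from -1.01 to 1.15.

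As gene30779, gene30780 and gene30782 have almost consecutive identifiers, the other genes numbered from gene30774 to gene30787 were examined. Without those 3, the window held 11 genes on the array, of which 7 passed the filter. Of these, 5 fell, or 71.4%, where 17.9% of all tested genes were called lower, and the mean ratio of 7 of 7 was below 0 (median -0.91 against -0.04). The control samples of 7 of these 7 lay above all their RNAi samples, as did those of 26% of all genes tested. Of the 7, gene30774 passed the filter through the control group only, as it was well above background in 2 of the 3 RNAi samples. The closest in size was gene30781, which sits between the codeine O-demethylase-like genes, at -1.41 (SE 0.12, n = 3, limma adjusted p = 0.0013). Its normalized log2 signals were 8.79, 8.73 and 9.18 in control and 7.58, 7.25 and 7.64 in RNAi samples. The ratios of gene30775, gene30776 and gene30777 were -0.91, -0.91 and -1.002, with limma adjusted p of 0.0038, 0.0057 and 0.0024.

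For gene30778, next to gene30779, the array ratios were -0.20, -0.78 and -1.03, and the mean was -0.67 (limma adjusted p = 0.035). Its call was lost without replicate 2 (-0.62, limma adjusted p = 0.15) and without replicate 3 (-0.49, limma adjusted p = 0.17). The genes gene30774 (-0.43, limma adjusted p = 0.063) and gene30783 (-0.26, limma adjusted p = 0.11) were not called. At the other end, gene30784 was well above background in 2 control samples and gene30785, gene30786 and gene30787 in none.

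Outside that window, the 20 identifiers on either side held 40 genes, 25 of them tested. There 7 (28%) were called lower, 5 higher and 13 were not called in limma, with a median ratio of -0.12 and a range of -1.18 to 0.96. Over all genes tested, 17.9% were called lower and 16.9% higher. Among those called lower, gene30760 and gene30800 passed the filter through the control group only. They were well above background in 0 and 1 RNAi samples. Next to the window, gene30773 was at -1.03 (limma adjusted p = 0.0028), lower than each tested neighbour except gene30781. At the other edge, gene30788 was at -0.405 (limma adjusted p = 0.26). This flank was added after the values had been seen. None of the neighbours or flanking genes reached the ratios of gene30779 and gene30780. No description was at hand for the neighbours, no genome was used, and the place of these genes on a chromosome is not known here. Whether probes for similar copies shared target RNA was not tested.

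**Figure D5:**
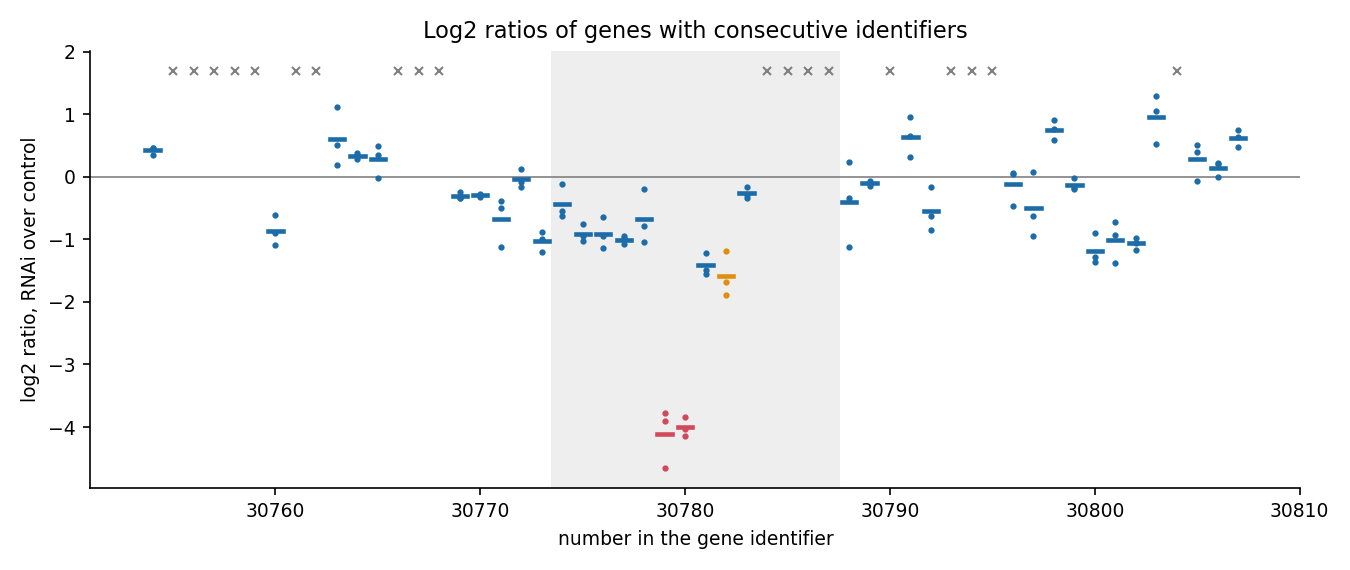
Log2 ratio, RNAi over control, against the number in the gene identifier, for gene30754 to gene30807. Dots are the 3 arrays and bars their mean. Red marks gene30779 and gene30780, orange gene30782, blue all others, grey crosses genes that did not pass the filter, and the shaded band the 14 identifiers examined first. The red bars at -4.11 and -4.00 stand well below every other bar.

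The genes with the most similar pattern over the 6 samples were found from the root mean square difference (RMS, in log2 units) between signals centred on their own mean. For gene30779 they were gene30780 (RMS 0.23), FaATT2 (0.26) and gene19943 (0.32), and for gene30780 they were gene19943 (0.14), FaATT2 (0.19) and gene30779 (0.23). The array ratios of FaATT2 were -4.01, -3.74 and -3.76 and those of gene19943 -3.60, -4.31 and -3.88. The nearest to FaDioxi1 were gene20725, described as UDP-rhamnose:rhamnosyltransferase 1 (RMS 0.10), the uncharacterised gene19545 (0.10) and gene29766 (0.11).

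The closest match of all was between FaDioxy2 and gene18930, an AOP2 dioxygenase, at an RMS of 0.054. On arrays 1, 2 and 3 their ratios were -2.31, -1.79 and -2.42 for FaDioxy2 and -2.23, -1.67 and -2.32 for gene18930. After it came gene14712 (0.063) and gene27475, described as a non-coding transcript (0.083). The likeness is taken over 6 samples of 2 groups that share arrays in pairs, so it rests largely on the difference between the groups.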

How the data were processed

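The deposited files were the authors' scanner output from 3 two-colour arrays (Agilent Feature Extraction 10.7, per the submitters' processing notes), all on 1 slide and in 1 scan. The columns used, per the file headers, were intensity values (median spot signal, median local background and the software's processed signal) and other columns of spot flags. Mean signals had been planned but were not among the columns, so medians were used. The authors treated each channel as a single-colour sample. Their methods name a Student test with a fold threshold, which was run as an alternative. No aligned sequence or probe sequence was used.

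All computation used R 4.3.3 and limma 3.58.1. The normexp method (offset 50) removed background, log2 ratios were normalized by loess within arrays, with control and outlier spots at weight 0, and turned to RNAi over control. Signals per sample were scaled by Aquantile. Spots were averaged per probe and probes per gene. Probes with at least 50% of spots well above background on the 3 arrays in at least 1 group were kept (21218 of 35335, 21098 genes). The 2 nameless probes were dropped. Each of the 4 genes had 1 probe, without outlier or saturated spots. Genes were tested on 1 ratio per array by lmFit and eBayes with Benjamini-Hochberg adjustment across the 21098 genes, and a gene was called below 0.05. Pairing by replicate number comes from the shared array. Their deviations from the group means correlated across genes at 0.43, -0.04 and 0.17, genes not being independent replicates. The methods call the fruit pools independent, but nothing states that pools of different replicates came from different plants. The p-values rest on the spread of the array ratios, moderated across genes by eBayes, and not on a known spread between plants. The spike-in scale used 10 probes of 35 spots each.

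The genes and lists were chosen with earlier results of these data known. Genes named were the 4 dioxygenase genes, those of the dioxygenase and neighbour lists, and the 3 tested genes nearest to each of the 4. The array's flavonoid dioxygenases and the flank were added after values were seen. Descriptions are the study's. Alternatives covered signal, background, normalization, scale, dye, filter, pairing, test, threshold, probe and replicates. The limma step was run on simulated array ratios, drawn independently for each gene. Background correction, normalization and the filter were not part of that simulation.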

Additional observations from a re-analysis of the deposited data

How the results depend on the processing

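The ratios of the 4 genes were negative in each of 10 settings and against the spike-ins. Taking the brightest probe or leaving out the replicate block could not change these means. As the genes were picked as lower in this contrast, the shared sign is not independent support. Against the spike-ins the median of the kept spots was itself at -2.09. Centring moved the size of the ratios of the 4 genes. Median centring of all gene spots gave -5.63, -5.54, -3.19 and -3.71 for gene30779, gene30780, FaDioxi1 and FaDioxy2, with the median of all genes at -0.86, and centring over the kept genes gave -4.75, -4.66, -2.30 and -2.83. Scaling to the spike-ins gave -6.22, -6.40, -3.71 and -4.27, and the processed signals gave -4.19 for gene30780. Counts of calls moved more. With median centring of all gene spots limma called 0 genes lower, 0 higher, 0 of the dioxygenases from the description table and 0 neighbours (9062 genes at an unadjusted p under 0.05, and the methods' t-test on the loess values called 2366 lower), and the cause was not tested. Centring over the kept genes called 3 of those dioxygenases, the further 2 being gene01062 and gene01202, both lower. A 2-fold minimum left 992 genes lower, 1306 higher and 2 neighbours. Leaving out each replicate in turn, limma called 1613 to 3657 genes lower, 1845 to 3468 higher and 1 to 2 of the dioxygenases, with the lowest counts without replicate 3 (1613 lower, 1845 higher) and 2082 lower and 2222 higher without replicate 2. Without the array as a replicate block, 3705 genes were lower and 3653 higher, with 4 neighbours and 1 dioxygenase called. The call of gene30778 was lost without the block (limma adjusted p = 0.056), with a dye term (0.075) and with the processed signals (0.060). The 4 genes were well above background in every sample, and gene30779 and gene30780 were each read by a single spot per array.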
